A study of Mus musculus with 69 samples.

Results

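The 10 genes described here encode the building blocks of microtubules and a protein that takes microtubules apart: 4 alpha-tubulins (Tuba1a, Tuba1b, Tuba1c and Tuba4a), 5 beta-tubulins (Tubb2a, Tubb2b, Tubb4b, Tubb5 and Tubb6) and stathmin 1 (Stmn1). They were picked by gene symbol, and each symbol occurred once in every table, among 55487 genes in the 24 h tables and 53700 in the 72 h tables. The choice was made because Tubb2a was higher after nephrectomy in the proximal tubule at 24 h and Stmn1 in the collecting duct at both times. The differences between nephrectomy and sham in those 3 sets of samples are therefore given as a description, without a test. The stated reason for the choice does not name the proximal tubule at 72 h, and the 9 genes that reached a mean of 1 TPM there were tested. Earlier results of these data were known, however, when the genes were chosen.

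RNA-seq had been performed on kidney tubules dissected by hand from wild-type male C57BL/6 mice operated on at 7 weeks of age. One group had sham surgery, and in the other 1 kidney was excised (unilateral nephrectomy, UNx). Tubules of the first proximal tubule segment (PT-S1) or of the cortical collecting duct (CCD) were taken 24 h or 72 h later, and each animal gave 1 or more libraries. PT-S1 at 24 h comprised 3 sham animals (8 libraries) and 4 UNx animals (9 libraries), and PT-S1 at 72 h had 5 animals and 12 libraries for either operation. For CCD there were 4 sham animals (8 libraries) and 3 UNx animals (7 libraries) at 24 h, and 4 sham animals (7 libraries) and 4 UNx animals (6 libraries) at 72 h. No genotype, drug or transgene separated the groups, and a dissected tubule holds all the cell types of its wall.

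Microtubules are hollow filaments of alpha- and beta-tubulin dimers. They carry vesicles to the apical and basolateral membranes of tubule cells, form the core of the primary cilium and build the mitotic spindle. Mammals have several genes for each kind of tubulin, the isotypes, whose proteins are nearly identical except at the carboxyl end, where enzymes add or remove residues. Stathmin 1 binds free tubulin dimers and promotes the shortening of microtubules, and it is known for high expression in dividing cells. Cells also adjust tubulin mRNA to the amount of free tubulin, since the ribosome-bound factor TTC5 triggers decay of tubulin transcripts when free dimers accumulate.

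Values are TPM, transcript levels summing to a fixed total, which are scaled for transcript length, so that levels of different genes can be compared within a table. The number of reads behind them is unknown. Each library had between 9247 and 14875 genes at 1 TPM or more. The summed TPM of 6 markers of the early proximal tubule, among them Slc34a1 and Lrp2, in PT-S1 animals ran from 8029 to 14936 at 24 h and from 6495 to 15377 at 72 h, against at most 78.0 in a CCD animal. The summed TPM of 7 principal cell markers, among them Aqp2, ran from 22133 to 66803 in the CCD animals and reached at most 134.9 in a PT-S1 animal. A median correlation under 0.92 with the rest of the table, called a low correlation here, was found for 5 libraries. They were 2 from sham PT-S1 at 24 h, 2 from UNx PT-S1 at 72 h and 1 from sham CCD at 72 h. Differences were also computed without these 5 libraries.

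In sham animals, the tubulin transcripts of PT-S1 and CCD were divided differently among the isotypes. Among the alpha-tubulin transcripts of PT-S1, Tuba4a, an isotype encoded without the terminal tyrosine, made up 89.3% ± 0.94 (SD, n = 3 animals) at 24 h and 88.4% ± 0.95 (n = 5) at 72 h. In CCD its share was lower, at 40.7% ± 3.78 (n = 4) and 51.5% ± 2.56 (n = 4), but was still the largest of the alpha-tubulins. The rest of the CCD pool at 24 h was made of Tuba1a, an isotype best known from neurons, at 24.1% ± 5.07, Tuba1c at 21.0% ± 2.02 and Tuba1b, a widely expressed isotype, at 14.1% ± 0.46. In PT-S1 at 24 h the same 3 genes stood at 0.47% ± 0.17, 4.87% ± 0.59 and 5.36% ± 0.31. The beta-tubulins were divided as sharply. Tubb4b, an isotype also found in cilia, held 87.0% ± 0.89 of the PT-S1 beta-tubulin transcripts at 24 h and 83.9% ± 0.72 at 72 h, against 26.8% ± 1.82 and 33.4% ± 4.71 in CCD. Tubb2a held 62.4% ± 3.95 of the CCD pool at 24 h and 54.8% ± 6.29 at 72 h, against 6.09% ± 0.53 and 7.37% ± 0.45 in PT-S1.

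**Figure D1:**
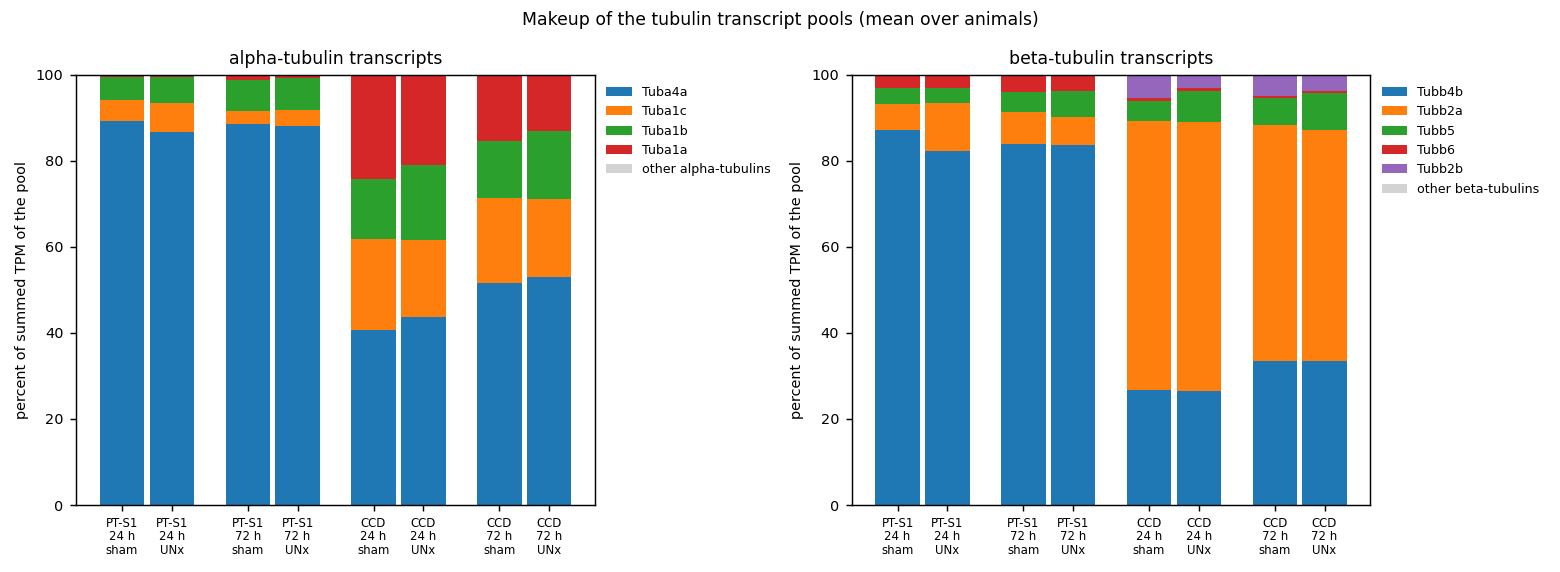
Stacked bars show the percent of the summed TPM of all alpha-tubulin genes (left) and all beta-tubulin genes (right) held by each gene, as means over the animals of each segment, time and operation. Tuba4a and Tubb4b fill most of the PT-S1 bars (89.3% and 87.0% in sham animals at 24 h), while the CCD bars are shared by 4 alpha-tubulins and led by Tubb2a on the beta side.

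The isotypes differ most at the end of the coding sequence, which is why that stretch is shown. The last 60 coding bases, 5′ to 3′, of 4 of the tubulins are given here from GENCODE M21 transcripts on GRCm38. The last codon before the stop is in capitals.
Tuba4a: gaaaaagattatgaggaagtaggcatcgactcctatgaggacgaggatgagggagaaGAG
Tubb2a: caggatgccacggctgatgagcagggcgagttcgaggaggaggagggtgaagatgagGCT
Tubb4b: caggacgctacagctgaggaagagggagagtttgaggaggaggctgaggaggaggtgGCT
Tubb5: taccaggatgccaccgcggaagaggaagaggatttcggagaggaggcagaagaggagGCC
Tuba4a, the alpha-tubulin with the largest share of transcripts in both segments, ends in GAG, which is not a codon of tyrosine. The other 3 are the beta-tubulins with the highest levels or the largest differences.

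Likeness between the genes limits how well short reads tell them apart. Over the coding sequence, Tuba1a and Tuba1b were identical at 98.3% of bases and Tuba1b and Tuba1c at 98.4%, while Tuba4a matched each of the 3 at 85.3% to 85.6%. Of all windows of 50 bases in the coding sequences, 93.9% of those in Tuba1a, 95.9% in Tuba1b and 90.8% in Tuba1c also occurred in a transcript of another gene, against 2.39% in Tuba4a. Outside its coding sequence, the longest Tuba4a transcript overlaps transcripts of Stk16, which was at 114 to 228 TPM and held 47.7% of that transcript's windows. Tubb2a and Tubb2b were 96.5% identical and shared 60.2% and 65.2% of their coding windows with other genes. Tubb4b-ps1 held 43.6% of the windows of the Tubb4b transcript and did not exceed 0.9 TPM in an animal. Over coding windows, Tubb4b shared 61.3% with other genes. In Tubb5 and Tubb6 the shared part was 0.0779% and 0%. For Stmn1 it was 87.4%, almost all of it with Gm11223, which did not exceed 3.54 TPM in an animal. The division of reads among Tuba1a, Tuba1b and Tuba1c, and between Tubb2a and Tubb2b, is therefore an estimate. So is that between Tuba4a and Stk16, and between Tubb4b and Tubb4b-ps1, while Tubb5 was counted with little ambiguity.

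In PT-S1 of sham animals at 24 h the highest levels were those of Tuba4a, at 459 ± 110 TPM (SD, n = 3), and Tubb4b, at 189 ± 23.8 TPM. Next came Stmn1 at 27.9 ± 0.33 TPM, Tuba1b at 27.3 ± 4.65 TPM, Tuba1c at 24.5 ± 3.13 TPM and Tubb2a at 13.3 ± 2.81 TPM. The lowest were Tubb5 at 7.73 ± 0.42 TPM, Tubb6 at 6.38 ± 1.12 TPM, Tuba1a at 2.36 ± 0.59 TPM and Tubb2b at 0.076 ± 0.052 TPM. Stmn1, Tuba1b and Tuba1c did not differ from one another beyond their spread, nor did Tubb5 and Tubb6. In CCD at 24 h the order began with Tubb2a at 369 ± 71.5 TPM (n = 4), Tuba4a at 354 ± 61.5 TPM and Tuba1a at 206 ± 27.5 TPM. Tuba1c at 183 ± 29.3 TPM, Tubb4b at 155 ± 12.3 TPM and Tuba1b at 122 ± 7.91 TPM followed. It ended with Tubb2b at 29.9 ± 5.15 TPM, Tubb5 at 27.0 ± 1.30 TPM, Stmn1 at 22.4 ± 2.30 TPM and Tubb6 at 3.85 ± 0.93 TPM. There the spreads of Tubb2a and Tuba4a, of Tuba1a and Tuba1c, of Tuba1c and Tubb4b, and of Tubb2b and Tubb5 overlapped.

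The tables of both segments were scaled separately, so levels are set side by side without a test. In bulk tubules, fewer cells of a type and less RNA per cell cannot be told apart. Tuba1a stood at 87.2 times its PT-S1 level in CCD at 24 h and 33.2 times at 72 h. Tubb2a stood at 27.8 and 34.7 times, Tuba1c at 7.46 and 18.2 times, Tuba1b at 4.45 and 5.05 times and Tubb5 at 3.49 and 6.16 times. Tubb2b, a close relative of Tubb2a, was at 29.9 ± 5.15 TPM in CCD at 24 h and 33.9 ± 2.66 at 72 h, and at 0.076 ± 0.052 and 0.044 ± 0.027 TPM in PT-S1. Of 6 neuronal markers 1 passed a mean of 1 TPM in CCD, Map2, and the means of the other 5 were under 1 TPM.

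The remaining members showed small or changeable gaps between segments. Tuba4a stood in CCD at 0.77 times its PT-S1 level at 24 h, with overlapping animals, and at 1.63 times at 72 h, without overlap. Tubb4b was higher in every PT-S1 animal at 24 h and in every CCD animal at 72 h, with ratios of 0.82 and 1.81. Tubb6, a beta-tubulin of low abundance in both segments, stood at 0.60 and 0.63 times, and Stmn1 at 0.80 and 0.50 times. Stmn1 was thus higher in every sham PT-S1 animal than in any sham CCD animal of the same time. In all, 6 of the 10 genes were higher in CCD without overlap at 24 h and 8 at 72 h, where 57.1% of all genes were at 24 h and 57.1% at 72 h. The other way round, 3 genes at 24 h and 1 at 72 h were higher in PT-S1, where 15.4% and 12.6% of all genes were.

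**Figure D2:**
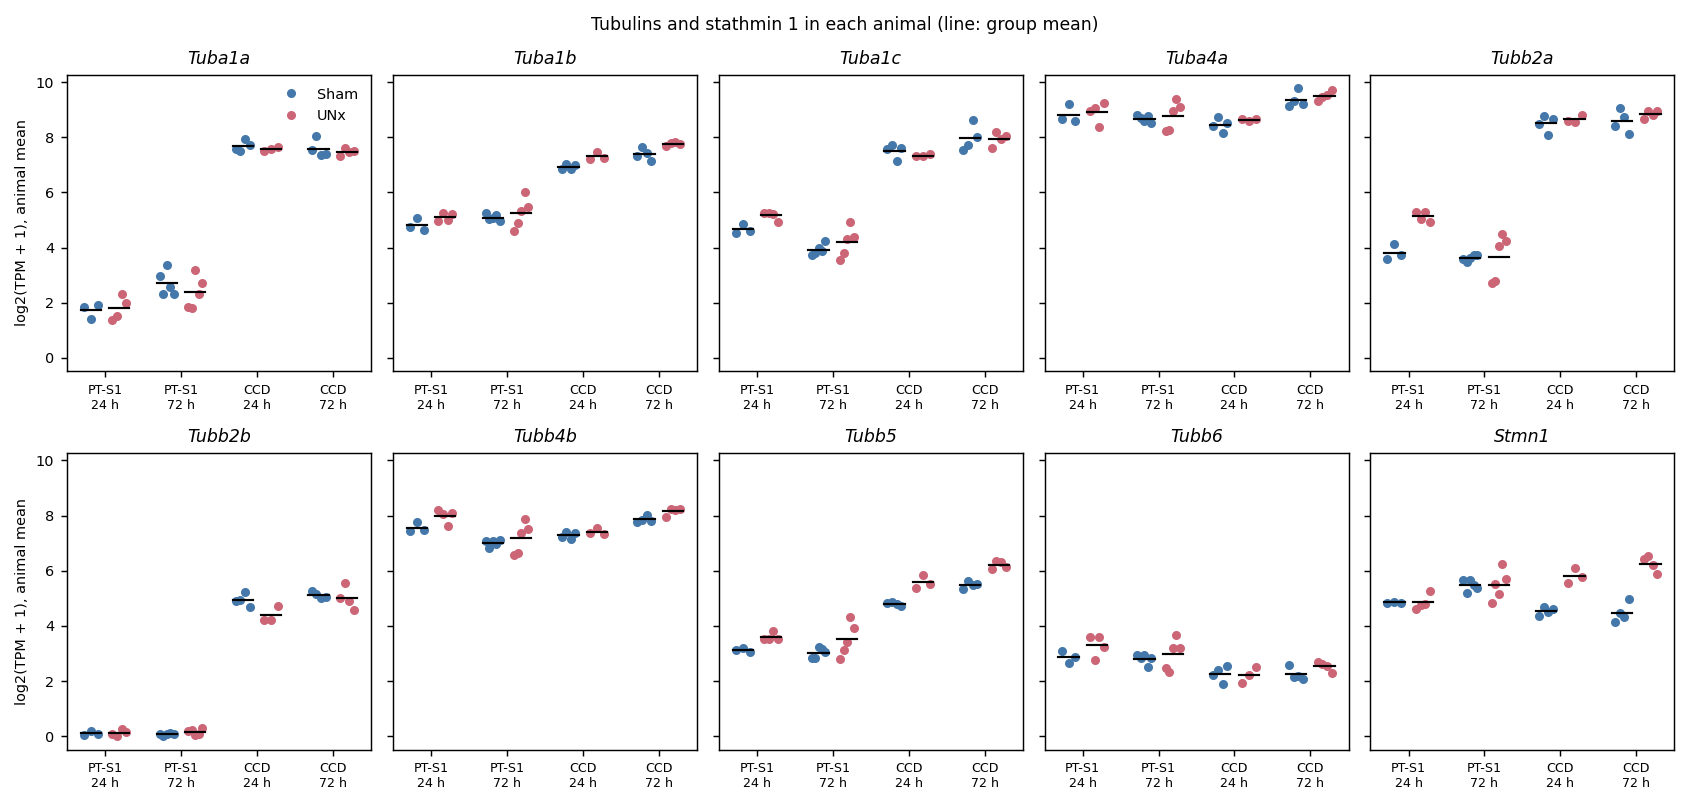
Each panel shows 1 gene, with 1 point per animal on the log2(TPM + 1) scale for sham (blue) and UNx (red) in each segment and time, and a line at the group mean. Tubb2a in PT-S1 at 24 h and Stmn1 and Tubb5 in CCD at both times are the panels in which red and blue points stand farthest apart, while Tuba4a and Tubb4b are high in all 8 groups.

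In PT-S1 at 24 h, Tubb2a was the member with the largest difference after nephrectomy. The sham animals had 11.1, 16.5 and 12.2 TPM, and the UNx animals had 38.1, 32.05, 38.3 and 29.3 TPM. Every UNx animal lay above every sham animal, and the means were 13.3 ± 2.81 (n = 3) and 34.4 ± 4.49 (n = 4). The difference on the log2(TPM + 1) scale was 1.34 with a standard error of 0.19. All genes tested had a median of -0.19 on that scale, so that Tubb2a stood 1.54 above it. Leaving out the sham libraries of low correlation gave a sham mean of 14.7 ± 1.62 TPM and a difference of 1.15.

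The other beta-tubulins of PT-S1 differed less at 24 h. Tubb5, the isotype most tied to proliferating tissues, was at 7.81, 8.11 and 7.27 TPM after sham surgery and 10.39, 10.51, 13.1 and 10.46 TPM in UNx animals, without overlap. Tubb4b was at 172, 216 and 178 TPM after sham surgery and 293, 268, 198 and 274 TPM in UNx animals, where the third UNx animal fell within the sham range. Tubb6 overlapped between the groups, with 5.32 to 7.55 TPM in sham and 5.76 to 11.2 TPM in UNx animals. The share of Tubb2a among beta-tubulin transcripts was 6.09% ± 0.53 in sham and 11.2% ± 2.46 in UNx animals, with ranges of 5.69% to 6.69% and 9.04% to 14.7%. The summed beta-tubulin level was 216 ± 25.9 TPM after sham surgery and 313 ± 38.3 TPM in UNx animals.

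On the alpha side, Tuba1c was at 22.1, 28.1 and 23.5 TPM after sham surgery and 37.5, 37.1, 36.5 and 29.2 TPM in UNx animals at 24 h, without overlap. Tuba1b, at 27.3 ± 4.65 and 33.8 ± 3.85 TPM, Tuba4a, at 459 ± 110 and 491 ± 117 TPM, and Tuba1a, at 2.36 ± 0.59 and 2.59 ± 1.06 TPM, overlapped between the groups. The summed alpha-tubulin level was 513 ± 117 TPM after sham surgery and 562 ± 116 TPM in UNx animals. Stmn1 was level, at 27.6, 28.3 and 27.8 TPM after sham surgery and 23.2, 26.1, 26.5 and 37.9 TPM in UNx animals.

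Tubb2b had a mean under 1 TPM in PT-S1 and was left out there, so 9 of the 10 genes entered the fit. All 9 differences were above 0, with a median of 0.45, and all 9 lay above the median of all genes. Without the 2 sham libraries of low correlation, 6 of the 9 were above 0, with a median of 0.32. Tuba1a then stood at -0.14 in place of 0.14, Tuba4a at -0.04 in place of 0.11 and Stmn1 at -0.04 in place of 0.01, and all 9 were still above the median of all genes, which was -0.21. In 3 of the 9, Tubb2a, Tubb5 and Tuba1c, the animals did not overlap, UNx higher, as in 2.32% of all 11874 genes tested, or 1.68% without the 2 sham libraries of low correlation, when the same 3 remained. None of the 9 was lower without overlap, as 19% of all genes were. Nothing is read from these counts, since the choice of the genes used this comparison.

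**Figure D3:**
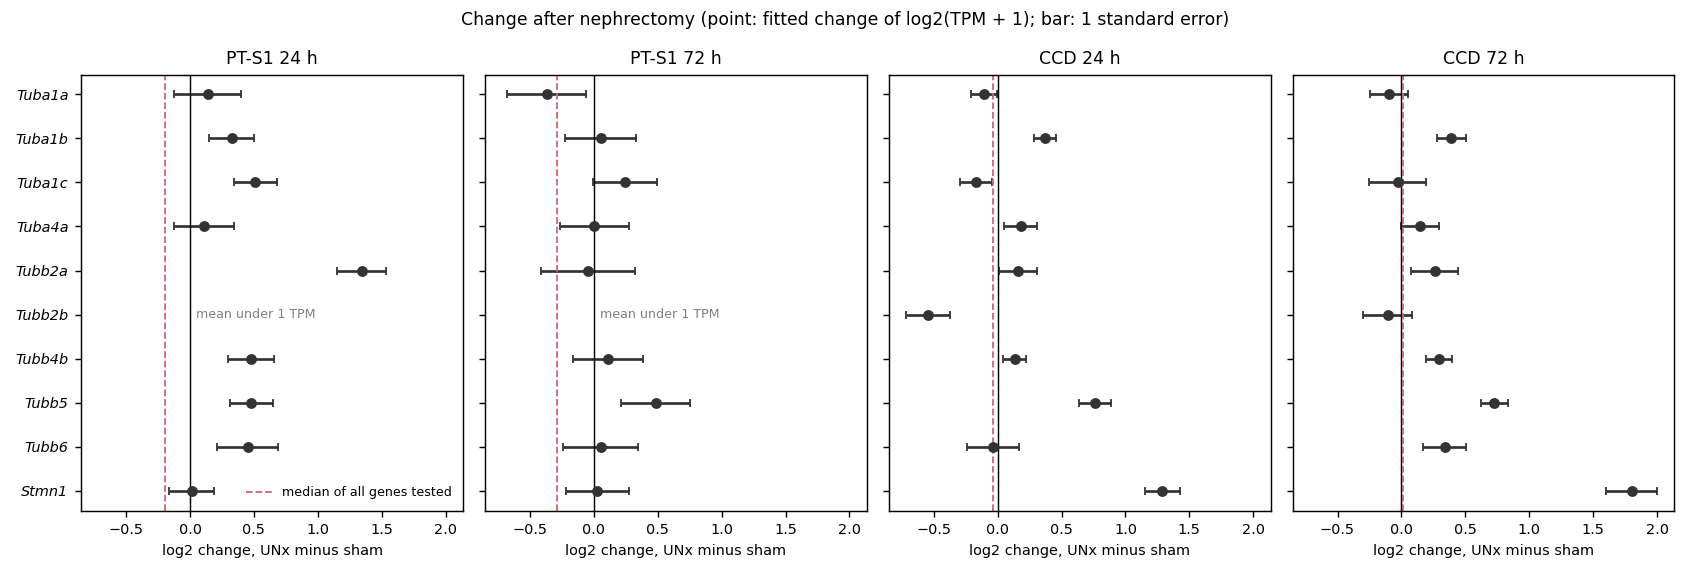
Points give the fitted difference of log2(TPM + 1), UNx minus sham, for each gene in each table, bars 1 standard error, the solid line 0 and the dashed line the median of all genes tested. Tubb2a stands at 1.34 in PT-S1 at 24 h and near 0 at 72 h, and Stmn1 near 0 in PT-S1 and at 1.29 and 1.80 in CCD.

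At 72 h the Tubb2a difference was not seen in PT-S1. The sham animals had 11.1, 10.1, 11.3, 12.4 and 12.4 TPM, and the UNx animals had 5.64, 5.90, 15.8, 21.3 and 17.7 TPM. The UNx values fell on both sides of the sham range, 2 below it and 3 above it. The fitted difference was -0.05 with a standard error of 0.37 and an adjusted p of 0.941 in the limma fit. The 2 UNx animals at 5.64 and 5.90 TPM are those that hold the libraries of low correlation, in which Tubb2a was at 1.91 and 2.46 TPM. Their other libraries gave 9.38 and 9.33 TPM. Without those 2 libraries the means were 11.4 ± 0.98 TPM after sham surgery and 14.7 ± 5.25 TPM in UNx animals (n = 5 each), and the difference was 0.29 with a standard error of 0.20. Whether the response at 72 h differs from that at 24 h was not tested, since the tables were scaled separately.

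No member passed the limma threshold in PT-S1 at 72 h, where 0% of all genes did. Tubb5 had the smallest adjusted p, 0.283, with 6.06 to 8.41 TPM in sham animals and 5.94, 7.68, 9.65, 19.0 and 14.1 TPM in UNx animals, and a difference of 0.48 with a standard error of 0.27. Tuba1c stood at 14.4 ± 2.18 and 18.4 ± 7.13 TPM, Tubb4b at 129 ± 10.8 and 155 ± 59.2 TPM, Tuba4a at 409 ± 32.2 and 462 ± 158 TPM, and Tuba1b at 33.2 ± 2.74 and 39.6 ± 15.4 TPM. Tubb6 was at 6.08 ± 0.84 and 7.31 ± 3.14 TPM and Tuba1a at 5.82 ± 2.32 and 4.54 ± 2.32 TPM. Stmn1 was at 49.99, 35.7, 49.3, 43.6 and 40.5 TPM after sham surgery and 27.6, 45.03, 34.6, 75.5 and 50.7 TPM in UNx animals, a difference of 0.03 with a standard error of 0.25. The spread among UNx animals was several times that among sham animals for Tuba4a, Tubb4b, Tubb2a and Tubb5.

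In that fit 0 of the 9 members and 0% of all 11886 genes passed an adjusted p of 0.05. At an unadjusted p under 0.05, 0 of the 9 members were found against 20.5% of all genes. No member was separated without overlap in either direction, as 0.236% of all genes were with UNx higher and 5.34% with UNx lower. The median difference of the members was 0.05 and that of all genes -0.29, and 8 of the 9 members lay above the median of all genes.

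The values of the tubulins depended on the 2 libraries of low correlation. Without them the median of all genes was -0.02 and that of the members 0.41. Tuba4a then stood at 409 ± 32.2 TPM after sham surgery and 530 ± 82.2 TPM in UNx animals, Tubb4b at 129 ± 10.8 and 174 ± 38.0 TPM, and Tuba1b at 33.2 ± 2.74 and 45.9 ± 10.3 TPM. These 3 genes no longer overlapped between the groups, UNx higher, as was so for 1.34% of all genes. Of the 9 members, 6 had an unadjusted p under 0.05, as did 2116 of the 11954 genes tested, and 0 passed the adjusted threshold. Stmn1 differed by -0.02 in that setting.

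**Figure D4:**
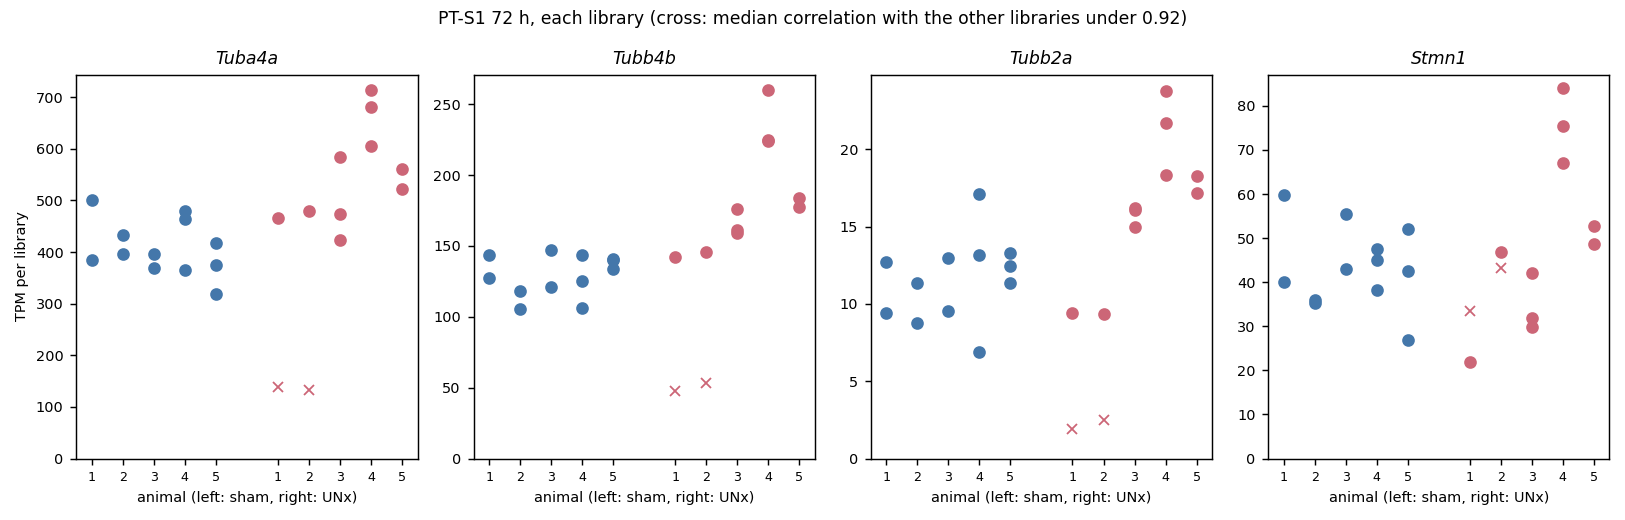
Each point is the TPM of 1 library of PT-S1 at 72 h, placed by animal, sham in blue and UNx in red, for 4 genes, and crosses mark the 2 libraries of low correlation. The crosses of UNx animals 1 and 2 lie far below the other library of the same animal for Tuba4a, Tubb4b and Tubb2a (1.91 against 9.38 TPM and 2.46 against 9.33 TPM for Tubb2a), and not for Stmn1.

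In CCD, Stmn1 was the member with the largest difference at both times. At 24 h it was at 19.6, 25.0, 21.7 and 23.4 TPM in the sham animals and 46.4, 67.7 and 53.5 TPM in the UNx animals. At 72 h it was at 16.5, 20.9, 18.8 and 30.8 TPM in the sham animals and 84.5, 92.8, 72.7 and 57.7 TPM in the UNx animals. In both tables the lowest UNx animal lay well above the highest sham animal. The means were 22.4 ± 2.30 (n = 4) and 55.9 ± 10.9 (n = 3) TPM at 24 h and 21.7 ± 6.28 and 76.9 ± 15.2 TPM (n = 4 each) at 72 h. The differences on the log2(TPM + 1) scale were 1.29 with a standard error of 0.14 and 1.80 with a standard error of 0.20.

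Tubb5 was the beta-tubulin with the largest difference in CCD. It was at 27.4, 28.5, 26.6 and 25.5 TPM after sham surgery and 40.4, 56.6 and 44.6 TPM in UNx animals at 24 h. At 72 h it was at 39.8, 48.3, 43.3 and 44.6 TPM after sham surgery and 65.3, 80.9, 78.3 and 69.8 TPM in UNx animals. Neither table showed overlap, and the differences were 0.76 with a standard error of 0.13 and 0.73 with a standard error of 0.11. The share of Tubb5 among beta-tubulin transcripts was 4.70% ± 0.65 in sham and 7.30% ± 1.31 in UNx animals at 24 h, and 6.33% ± 1.00 and 8.60% ± 0.54 at 72 h.

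Tuba1b was the alpha-tubulin that stood apart in CCD. It was at 115, 129, 115 and 128 TPM after sham surgery and 147, 174 and 152 TPM in UNx animals at 24 h, and at 157, 199.7, 173 and 141 TPM after sham surgery and 207, 222, 226 and 216 TPM in UNx animals at 72 h. Both differences were of similar size, 0.37 and 0.39 with standard errors of 0.09 and 0.11. Tuba1a and Tuba1c, its near copies, were not higher, at differences of -0.11 and -0.17 at 24 h and -0.10 and -0.03 at 72 h. The division of reads among Tuba1a, Tuba1b and Tuba1c is an estimate, and its part in these differences was not tested. Tuba4a differed by 0.18 and 0.15, with overlapping animals.

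The most abundant beta-tubulins of CCD differed little. Tubb2a, which led the difference in PT-S1, stood at 369 ± 71.5 and 404 ± 36.8 TPM in CCD at 24 h and at 397 ± 113 and 460 ± 41.2 TPM at 72 h. Tubb4b stood at 155 ± 12.3 and 170 ± 15.3 TPM at 24 h and at 233 ± 20.0 and 286 ± 25.6 TPM at 72 h, where 3 of 4 UNx animals lay above all sham animals. Tubb2b was at 28.7, 29.5, 36.9 and 24.5 TPM after sham surgery and 17.5, 17.4 and 25.7 TPM in UNx animals at 24 h. It was the only member of CCD with a difference below -0.5 at 24 h, at -0.54, and stood at -0.11 at 72 h. Tubb6 was at 3.85 ± 0.93 and 3.73 ± 0.96 TPM at 24 h and at 3.80 ± 0.83 and 4.86 ± 0.71 TPM at 72 h.

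All 10 genes entered the CCD fits. At 24 h, 3 of the 10 (Stmn1, Tubb5 and Tuba1b) did not overlap, UNx higher, as 5.71% of all 13775 genes, and 0 were lower without overlap, as 9.3% of all genes were. At 72 h it was the same 3 genes, beside 2.96% of all 13770 genes, or 3.71% without the sham library of low correlation, and 0 were lower, beside 1.82% of all genes. Nothing is read from these counts, as the choice of the genes used both comparisons.

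Genes of the cell cycle were higher in the same CCD samples. Of 15 proliferation genes, among them Top2a, Cdk1 and Mcm5, 8 rose at 24 h and 11 at 72 h in the limma fits (adjusted p under 0.05). Of all genes, 0.987% and 0.595% changed. The median differences of the 15 were 1.03 and 1.71, against -0.04 and 0.01 for all genes. The list was chosen with earlier results of these data known, so these counts are a description. Tyms, which makes thymidylate for DNA synthesis, stood at 57.7 ± 5.30 and 83.1 ± 12.0 TPM at 24 h and at 82.6 ± 14.2 and 120.3 ± 13.5 TPM at 72 h. Pcna, the sliding clamp of DNA replication, stood at 41.4 ± 2.14 and 49.8 ± 8.51 TPM and at 40.1 ± 3.06 and 57.1 ± 2.81 TPM. These are the most abundant of the 15, and neither passed the threshold, with adjusted p values of 0.0723 and 0.338 at 24 h and 0.161 and 0.0514 at 72 h in the limma fits. The summed level of all 15 genes ran from 207 to 237 TPM in sham and 314 to 475 TPM in UNx animals at 24 h, and from 226 to 260 TPM and 438 to 573 TPM at 72 h. Their part in the Stmn1 and Tubb5 differences was not tested.

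In PT-S1 the group difference of Stmn1 was smaller than that of these genes. At 72 h the median difference of the 14 proliferation genes tested was 1.10, against -0.29 for all genes, while Stmn1 differed by 0.03. Of the 14, 8 had an unadjusted p under 0.05 in the limma fit, where 20.5% of all genes had. The adjusted threshold was passed by 0 of the 14 and by 0% of all genes. The summed level of all 15 proliferation genes was 115 to 139 TPM in sham animals and 79.6, 133, 166, 324 and 221 TPM in UNx animals. Tyms and Pcna made up most of the sham sums. Without these 2 genes the sums were 26.5 to 36.4 TPM in sham animals and 22.7, 61.4, 63.0, 195 and 119 TPM in UNx animals. Stmn1 in the same UNx animals was at 27.6, 45.03, 34.6, 75.5 and 50.7 TPM, so the lowest animal and the 2 highest were the same for both. The UNx animal at 324 TPM was also the highest for Tubb5, at 19.0 TPM. Sham PT-S1 animals at 72 h had 35.7 to 49.99 TPM of Stmn1 at proliferation sums lower than those of any CCD animal. At 24 h the median of the 9 genes tested was 0.25, against -0.19 for all genes. Of the 9, 0 had an unadjusted p under 0.05, where 17.8% of all genes had. The limma threshold was passed by 0 of the 9 and by 0% of all genes.

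**Figure D5:**
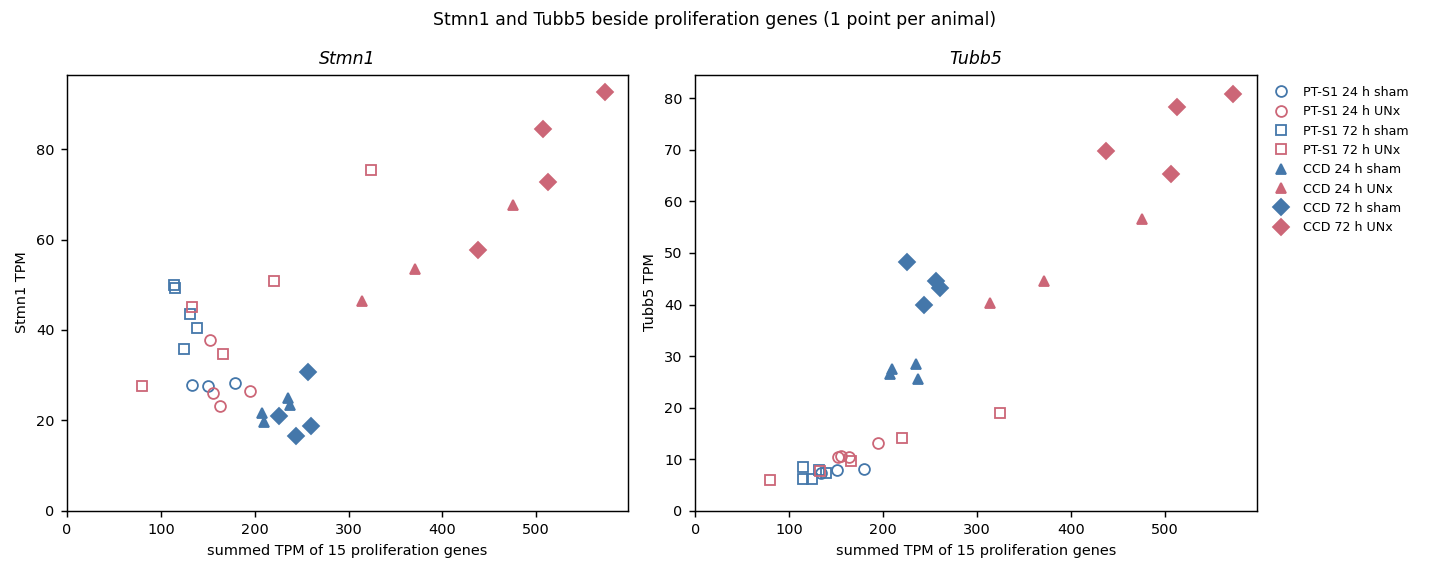
Each point is 1 animal, with the summed TPM of 15 proliferation genes on the horizontal axis and the TPM of Stmn1 (left) or Tubb5 (right) on the vertical axis, for PT-S1 (open) and CCD (filled), sham in blue and UNx in red. The CCD animals of UNx lie at the upper right in both panels, and sham PT-S1 animals at 72 h have 35.7 to 49.99 TPM of Stmn1 at sums of 115 to 139 TPM. Tyms and Pcna, the most abundant of the 15 genes, are part of all sums.

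The genes whose values ran most like Stmn1 over the 15 CCD animals, among 10143 genes, were Cks1b, Ccna2, Cdk1, Pbk and Birc5. Their Pearson correlations with Stmn1 were 0.99, 0.98, 0.98, 0.97 and 0.97, each table's values taken relative to its sham mean. Cks1b, a partner of the cyclin-dependent kinases, went from 16.7 ± 1.80 to 28.6 ± 2.20 TPM at 24 h and from 15.4 ± 1.23 to 34.2 ± 5.49 TPM at 72 h. Cdk1, the kinase that drives entry into mitosis, went from 6.80 ± 2.83 to 25.0 ± 5.65 TPM and from 7.85 ± 4.55 to 37.8 ± 10.3 TPM. Of the other members Tubb5 came closest, at 0.92 and rank 33, followed by Tuba1b at 0.80 and Tubb4b at 0.72, while Tuba1a and Tubb2b stood at -0.27 and -0.28. The animals fall into a sham and a UNx group for these genes, so the values describe mostly that split and carry no p.

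Over the 17 PT-S1 animals and 8164 genes, the genes most like Tubb2a were Eno1, Igsf5, Tnfrsf12a, Atpsckmt and Psmd14, at correlations of 0.94, 0.92, 0.91, 0.91 and 0.91. Eno1, an enzyme of glycolysis, was at 677 ± 52.3 and 1153 ± 183 TPM at 24 h and at 614 ± 42.3 and 572 ± 145 TPM at 72 h. Tnfrsf12a, the receptor of the cytokine TWEAK, was at 36.3 ± 3.73 and 82.3 ± 25.9 TPM at 24 h and at 21.6 ± 3.70 and 26.2 ± 7.92 TPM at 72 h. Tuba1c and Tubb4b were the members most like Tubb2a, at 0.83 and 0.82, and Stmn1 the least, at 0.29. The libraries of low correlation are among those correlated.

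The upstream sequences are shown for 3 members that stood apart after nephrectomy and have an entry in the RefSeq promoter table of GRCm38.p6: Tubb2a in PT-S1, and Tubb5 and Tuba1b in CCD. The table holds 7 of the 10 members, and Stmn1, Tubb2b and Tubb6 are not among them. Each is the 250 bases before the gene's start, 5′ to 3′ on the strand of the gene, at chr13:34078009-34078258 (minus strand), chr17:35838302-35838551 (minus strand) and chr15:98934391-98934640 (minus strand). Capitals mark CCAAT and TATAAA on either strand.
Tubb2a: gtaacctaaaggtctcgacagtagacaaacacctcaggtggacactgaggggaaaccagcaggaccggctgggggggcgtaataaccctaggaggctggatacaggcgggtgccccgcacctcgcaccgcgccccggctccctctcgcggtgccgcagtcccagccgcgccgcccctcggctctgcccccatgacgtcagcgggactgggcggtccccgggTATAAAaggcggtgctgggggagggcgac
Tubb5: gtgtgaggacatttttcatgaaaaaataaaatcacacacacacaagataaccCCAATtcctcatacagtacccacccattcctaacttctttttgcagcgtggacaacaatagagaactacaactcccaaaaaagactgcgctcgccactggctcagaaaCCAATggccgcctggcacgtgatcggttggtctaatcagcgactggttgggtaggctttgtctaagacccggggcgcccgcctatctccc
Tuba1b: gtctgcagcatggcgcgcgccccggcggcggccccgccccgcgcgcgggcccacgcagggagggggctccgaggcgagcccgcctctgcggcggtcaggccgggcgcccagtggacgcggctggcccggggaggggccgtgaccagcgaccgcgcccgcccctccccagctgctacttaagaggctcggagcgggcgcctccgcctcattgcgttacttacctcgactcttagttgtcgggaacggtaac
The 3 sequences have little in common in these motifs. Tubb2a holds TATAAA at positions -29 to -24 from the start, as 12.4% of all 32851 promoters hold the motif on either strand. Tubb5 holds CCAAT at positions -198 to -194 and -90 to -86, and 4 of the 7 members hold it, beside 33.8% of all promoters. Tubb4b holds 5 copies of it. GGGCGG was found in Tubb2a and Tuba1b and in 5 of the 7 members, beside 32.7% of all promoters. TTTGAA was found in 1 of the 7, Tubb4b, beside 16% of all promoters. TTTCGCGC and TTTGGCGC, forms of the E2F motif, were in 0 of the 7, beside 0.256% and 0.417%. GGGCGG does not overlap the other matches shown. A match is a description of letters and not a bound site.

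Of 84 other genes of tubulin biology in 7 lists, 1 passed the limma threshold in any table. This was Fignl1, an AAA ATPase related to the microtubule-severing proteins, which rose in CCD at 72 h from 1.66 ± 0.22 to 6.92 ± 1.30 TPM, a difference of 1.59 with a standard error of 0.19 and an adjusted p of 0.00962. The number of these genes tested was 66 in PT-S1 at both times, 71 in CCD at 24 h and 70 in CCD at 72 h. At an unadjusted p under 0.05 there were 15, 15, 9 and 7 of them, in the order PT-S1 at 24 h and 72 h and CCD at 24 h and 72 h, where 17.8%, 20.5%, 15.5% and 7.49% of all genes were. The adjusted threshold was passed by 0% of all genes in PT-S1 at both times. In CCD it was passed by 0.987% of all genes at 24 h and 0.595% at 72 h. The median differences of the listed genes were -0.16 and -0.32 in PT-S1 at 24 h and 72 h and -0.05 and 0.02 in CCD, beside -0.19, -0.29, -0.04 and 0.01 for all genes.

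Among the other tubulins, gamma-tubulin (Tubg1), which nucleates microtubules at the centrosome, followed the CCD pattern of Tubb5 without passing the threshold, at 32.7 ± 0.94 and 42.3 ± 2.81 TPM at 24 h and 42.1 ± 3.04 and 52.9 ± 3.66 TPM at 72 h. Its adjusted p values were 0.0775 and 0.351. The 3 other stathmins, Stmn2, Stmn3 and Stmn4, had means under 1 TPM in all 4 tables, so Stmn1 was the stathmin of both segments. The 21 genes that fold tubulin, the CCT chaperonin, prefoldin and the tubulin cofactors, were all tested, and 0 passed the limma threshold in any table. Of all genes, 0% passed it in PT-S1 at both times, and 0.987% and 0.595% in CCD at 24 h and 72 h. With so few passing, 0 of 21 says little about the folding genes. At an unadjusted p under 0.05 there were 3 and 0 of them in PT-S1 at 24 h and 72 h and 1 and 2 in CCD. Their summed level was 2193 to 2325 TPM in sham and 2183 to 2384 TPM in UNx animals of PT-S1 at 24 h, while the summed beta-tubulins had 199 to 246 and 261 to 352 TPM in the same groups. Of the 21 folding genes 12 were above 0 there, 2 were higher without overlap and 3 lower, where 2.32% and 19% of all genes were. The cofactors Tbcel and Tbcd were among the 3, at 18.2 ± 8.91 and 7.95 ± 1.96 TPM and at 26.9 ± 9.92 and 17.1 ± 2.25 TPM. The sham values of PT-S1 at 24 h include the 2 libraries of low correlation. In CCD at 72 h Tbcd was higher without overlap, at 22.8 ± 3.15 and 28.2 ± 2.59 TPM, and the cofactor Tbcc lower, at 115 ± 10.9 and 79.8 ± 11.1 TPM. In CCD at 24 h the prefoldin subunit Pfdn1 was higher, at 92.8 ± 3.59 and 112 ± 7.52 TPM, and so was the chaperonin subunit Cct6a, at 148 ± 3.17 and 159.6 ± 6.32 TPM.

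The 3 genes of tubulin autoregulation, Ttc5, Scaper and Cnot11, gave 0 calls. Scaper was the one without overlap, in CCD at 24 h, at 10.01 ± 0.25 and 8.03 ± 0.88 TPM. Of the 8 genes of the gamma-tubulin ring complex and the 15 or 16 microtubule-binding genes tested, 0 passed. At most 0.987% of all genes passed in any table, so these counts of 0, and that for autoregulation, say little about the lists. In PT-S1 at 24 h the binding genes had a median of -0.47, or -0.28 relative to all genes. Of the 15, 7 had an unadjusted p under 0.05 in the limma fit, where 17.8% of all genes had. Lower without overlap were 3 of the 15, where 19% of all genes were. Among the 3, Mapre2, an end-binding protein, was at 61.1 ± 13.5 and 40.4 ± 1.74 TPM. In CCD at 24 h Ckap5, a microtubule polymerase, was at 24.9 ± 2.65 and 17.0 ± 3.63 TPM. Of the enzymes that modify tubulin, Agbl5, a carboxypeptidase that trims glutamates from tubulin, was lower in every UNx animal of PT-S1 than in any sham animal. It was at 15.6 ± 6.77 and 7.20 ± 0.19 TPM at 24 h and 12.0 ± 1.18 and 8.28 ± 1.80 TPM at 72 h, with an adjusted p of 0.254 and 0.237 in the limma fits. Lower without overlap were also 19% of all genes at 24 h and 5.34% at 72 h. The PT-S1 values at 24 h in this paragraph, also those of the binding genes, include the 2 sham libraries of low correlation. The 72 h values include the 2 UNx libraries of low correlation. Values without these libraries are not given for these genes. Atat1, the tubulin acetyltransferase, was at 61.9 ± 2.85 and 48.0 ± 6.70 TPM in CCD at 72 h, with an adjusted p of 0.384.

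Markers of other cell types were measured beside these differences, and their part in them was not tested. In CCD at 24 h the summed level of 4 thick ascending limb markers was 110 to 3497 TPM in sham and 103 to 222 TPM in UNx animals, and that of 8 leukocyte markers 40.9 to 75.7 and 37.4 to 62.9 TPM. The sum of 5 markers of the last proximal tubule segment was 109 to 127 TPM in sham and 73.2 to 99.0 TPM in UNx animals, without overlap, and 3 of the 5 had an unadjusted p under 0.05. The sum of the 7 principal cell markers was 25077 to 50456 TPM and 48052 to 66803 TPM, and 3 of the 7 had an unadjusted p under 0.05. Of all genes in CCD at 24 h, 15.5% had such a p in the limma fit. At 72 h the leukocyte markers stood at 22.5 to 81.9 and 38.2 to 68.5 TPM and 6 endothelial markers at 28.7 to 112.8 and 33.6 to 87.0 TPM. In PT-S1 at 24 h the endothelial markers stood at 38.7 to 65.9 and 42.7 to 99.2 TPM, the leukocyte markers at 16.1 to 28.5 and 11.1 to 31.1 TPM, and the 6 early proximal tubule markers at 11675 to 14936 and 8029 to 11692 TPM. None of the 12 marker lists had a gene that passed the limma threshold in any table. That threshold was passed by 0% of all genes in PT-S1 at both times, and by 0.987% and 0.595% in CCD at 24 h and 72 h. With so few genes passing, the lack of marker genes among them cannot show that the makeup of the samples was alike.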

How the data were processed

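RNA was measured in 69 libraries of microdissected tubules, in 4 tables (PT-S1 and CCD, 24 h and 72 h). The deposited values are TPM, gene levels scaled by the authors to a fixed total after alignment with STAR and estimation with RSEM 1.3.3 on GRCm39, per the submitters' processing notes. TPM keeps no depth, so no counting interval can be given. The cDNA came from the SMART-Seq V4 low-input kit, per the labels' protocols, which does not mark strand. Of the 69 columns, 47 matched 1 sample and 22 matched a group and an animal.

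For each library log2(TPM + 1) was taken, and libraries of 1 animal were averaged, since the animal is the replicate. UNx was compared with sham within a table by limma 3.58.1 in R 4.3.3 with a mean-variance trend, over genes with a mean TPM of 1 or more, two-sided, with Benjamini-Hochberg adjustment over all genes tested and a threshold of 0.05. The p-values measure the spread between these animals. The scripts were tested on simulated data. Animal numbers were not used to pair samples.

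The 10 genes and all gene lists were chosen with earlier results of these data known. All 10 are named in every table. From each pathway list and table, at most 2 genes were eligible by name, those with the largest difference among genes at a mean of 10 TPM or more in 1 group and without overlap between animals, and a selection of these is printed. Fignl1 is named as the 1 gene that passed the threshold. Likeness was computed over animals, relative to the sham mean of each table, among genes at a mean of 5 TPM or more, and the 5 closest genes are named. Of the proliferation genes the 2 most abundant are named.

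Sequences came from GENCODE M21 and RefSeq on GRCm38, a build other than that of the deposited values, and were used for their letters only. Shared windows of 50 bases were counted over the transcripts of all genes. Alternatives were other pseudocounts, filters, scalings and models, each animal left out, and libraries of low correlation left out.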

Additional observations from a re-analysis of the deposited data

Results flagged for a closer look

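In 4 of the 60 groups examined, 1 animal stood far from the others of its group, where chance gives about 1 in 20. In PT-S1 at 24 h, UNx animal 4 had 29.2 TPM of Tuba1c, below the 36.5 to 37.5 TPM of the other UNx animals, and UNx animal 3 had 13.1 TPM of Tubb5, above the 10.39 to 10.51 TPM of the others. In CCD at 72 h, UNx animal 1 had 248 TPM of Tubb4b, below the others at 297 to 302 TPM, and sham animal 1 had 5.03 TPM of Tubb6, above the others at 3.26 to 3.51 TPM.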

How the results depend on the processing

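In PT-S1 at 24 h, where 0 members and 0 genes passed the limma threshold, 1 member (Tubb2a) passed with the animal as a random effect, with every library as a sample and with the replicate block. The genes passing there numbered 2 with no filter on low values, 1 under median-ratio scaling, 100 with a random effect, 85 with every library, 80 with the replicate block, 1 without the libraries of low correlation, and 0 to 8 with 1 animal left out. In PT-S1 at 72 h no member passed under any alternative run, and 10 genes passed with a random effect, 18 with every library and 1 without the libraries of low correlation, against 0. In CCD at 24 h, the 2 members that passed became 0 with no filter, 0 with the replicate block and 1 with any animal left out. The 136 genes became 1 with no filter, 485 with a random effect, 1027 with every library, 0 with the replicate block and 7 to 78 with 1 animal left out. In CCD at 72 h, the 2 members became 1 with no filter, 0 with the replicate block and 1 to 2 with 1 animal left out. The 82 genes became 7 with no filter, 39 at a filter of 5 TPM, 150 with every library, 3 with the replicate block, 129 without the library of low correlation and 8 to 73 with 1 animal left out. Nothing is read from the members that passed in PT-S1 at 24 h or in CCD, where the choice of the genes used the comparison. The correlations of same-numbered animals ran from -0.37 to 0.33. Taken as deviations from the means of so few animals, they cannot settle whether the numbers pair the samples. The main fit uses no pairing. In PT-S1 at 72 h, signs turned for Tubb6 (-0.027 with a pseudocount of 0.1), Stmn1 (-0.021 without the libraries of low correlation) and Tubb2a (0.27 under quantile and 0.26 under median-ratio scaling, 0.025 on log2 of mean TPM, 0.042 with a random effect, 0.054 with every library and 0.29 without the libraries of low correlation). With 1 animal left out the differences there ran from -0.17 to 0.20 for Stmn1, -0.16 to 0.25 for Tuba1b, -0.17 to 0.18 for Tuba4a, -0.28 to 0.23 for Tubb2a, -0.077 to 0.30 for Tubb4b and -0.15 to 0.27 for Tubb6. The cause of these changes was not tested. Another scaling moved the median of all genes in PT-S1 from -0.19 and -0.29 to near 0, which is why values relative to that median are given.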
